A study of Mus musculus with 22 samples.

Results

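Myeloid progenitors are the immature cells that give rise to neutrophils, monocytes, basophils and eosinophils. At the promyelocyte step they fill their first, azurophil, granules with myeloperoxidase (Mpo) and with the serine proteases proteinase 3 (Prtn3), neutrophil elastase (Elane) and cathepsin G (Ctsg), and RNA of these genes is lost as the cells mature and make secondary granules with lactoferrin and cathelicidin. In adult mice this step takes place in bone marrow, and dissected nasal tissue can carry marrow and blood with it.

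Among 25185 cells of mouse olfactory epithelium (OE) that passed quality filters, 408 (1.62%) were myeloid progenitors by their content of these 4 transcripts, 70 of them from 4 wild-type (WT) mice and 338 from 4 Upf3b-null mice. A cell was selected on its measured values: Mpo, Prtn3, Elane and Ctsg together made up at least 0.2% of its unique molecular identifiers (UMIs, each 1 captured transcript), and S100a8 and S100a9, which rise in maturing neutrophils, made up less than 5%. Quality filters (over 500 genes, over 1500 UMIs, under 20% mitochondrial UMIs) retained 25185 of 32293 deposited barcodes. Levels of the 4 genes in these cells follow from the selection and are given as a description.

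The series asks what loss of UPF3B, a factor of nonsense-mediated RNA decay (NMD) encoded on the X chromosome, does in the olfactory system. Male C57BL/6 mice (C57BL/6J in the study's methods, 7 to 8 weeks of age) labelled wild type or Upf3b-/- were used, with 4 mice per genotype, 1 droplet library per mouse (10x Chromium, v2 chemistry) and no treatment. The null allele is germline, so every cell of a null mouse carries it, and the labels name no Cre driver or transgene for these 8 libraries. Dissected OE was dissociated with enzymes and depleted of dead cells without a sort for cell type, so haematopoietic cells were not removed. Whether these came from the tissue itself, from blood or from marrow was not tested. The labels give no litter, day or lane for a mouse.

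The 4 selecting genes lie in 3 places of the genome, and Prtn3 and Elane are neighbours. In GRCm38 coordinates, Mpo (ENSMUSG00000009350) spans chr11:87793581-87804413 on the plus strand, Prtn3 (ENSMUSG00000057729) chr10:79874476-79883174 and Elane (ENSMUSG00000020125) chr10:79886247-79888215, both on the plus strand with 3072 bases between them, and Ctsg (ENSMUSG00000040314) chr14:56099881-56102574 on the minus strand. Ctsg lies 14607 bases from Mcpt8, a basophil protease gene on the same strand. A stretch of 30 bases upstream of the RefSeq start of each gene is shown because all 4 hold the same purine-rich sequence, GAGGAAG on either strand, a form of the core bound by ETS factors such as PU.1 (the product of Spi1). The sequences are from RefSeq promoters of build GRCm38.p6, written 5′ to 3′ on the gene's strand, with the match in capitals.
Mpo: GAGGAAGgggctgtggagagagaGAGGAAG
Prtn3: ccaaactggaagGAGGAAGtgggacccaca
Elane: tcgtgtcccaggGAGGAAGtagggctgtgg
Ctsg: ctcccagaaggaGAGGAAGaaaaggaagta
The stretches are chr11:87793537-87793566 for Mpo, chr10:79879560-79879589 for Prtn3 and chr10:79886215-79886244 for Elane, all on the plus strand, and chr14:56102773-56102802 on the minus strand for Ctsg. That of Prtn3 lies inside the gene's wider span given above, because the RefSeq start is further downstream. The matches begin 247 and 224 bases before the start of Mpo, 95 before that of Prtn3, 85 before that of Elane and 216 before that of Ctsg. In all, 13.63% of the 32851 RefSeq windows of 300 bases (250 before the start to 50 after it) hold this sequence, so a match is a description of the letters and not a binding site. Of the other motifs searched on both strands in the same windows, CAACTG, a MYB core present in 13.65% of windows, was found in the window of Ctsg, and none of TTGCNNAA (C/EBP, 10.8%), GATAAG (erythroid and basophil factors such as Gata2, 7.44%), AACCACA (RUNX, 5.27%) and AAATCA (GFI1, 14%) was found in the windows of the 4 genes. None of these overlapped a GAGGAAG match.

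The cells carried the 4 transcripts together. Of the 408 cells, 318 (77.94%) had a UMI of all 4 genes, 56 had 3 of them, 30 had 2 and 4 had only 1. Prtn3 was found in 95.83% of the cells, Ctsg in 92.89%, Mpo in 91.18% and Elane in 88.73%, while Elane alone supplied 40.49% of all UMIs of the 4 genes. Each gene also gave UMIs in mature olfactory sensory neurons (mOSNs). The mOSN gate held 10567 cells with at least 0.1% of UMIs from the mOSN gene Omp. Cells that passed the progenitor gate or a gate for another blood lineage were left out. Of these mOSNs, 4.10% had a UMI of Mpo, 5.04% of Prtn3, 4.37% of Elane and 1.74% of Ctsg. The shares are taken here as the background of RNA free in the suspension, which was not tested. The study reports that olfactory sensory neurons themselves express antimicrobial genes at low levels. By mouse this background ran from 0.231% to 10.1% for Mpo, 2.19% to 8.29% for Prtn3, 0.135% to 11.4% for Elane and 0.116% to 4.86% for Ctsg, with the highest mouse null replicate 4 for Mpo and null replicate 3 for the other 3 genes. S100a8, which sets the second limit, had a UMI in 71.1% of these mOSNs (17.9% to 100% by mouse). Median depth was 7188.5 UMIs and 2275.5 genes in the progenitors against 2827 UMIs and 1332 genes in all other cells.

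The summed level of each gene (CPM, UMIs of the gene scaled to a fixed total of all progenitor UMIs of a mouse) varied between mice. Elane stood at 6221, 9556, 1866 and 4777 CPM in WT replicates 1 to 4 and at 7571, 2910, 7728 and 3826 CPM in Upf3b-null replicates 1 to 4. Mpo stood at 2050, 3327, 1569 and 2052 CPM in WT and at 3973, 2910, 3645 and 3022 CPM in null mice. Both genotypes thus overlapped for both genes, and WT replicate 3, with 6 cells, was the lowest of the 8 mice for each of the 4 genes. Prtn3 ranged from 1908 to 5096 CPM and Ctsg from 742 to 2901 CPM over the 8 mice. UMIs are counted at the 3′ end of a transcript, so these levels are not scaled by transcript length.

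The threshold lay on a slope and not in a gap. The share of a cell's UMIs from the 4 genes (the gate share) had a median of 0.926% and ran from 0.201% to 6.33%, with quartiles at 0.436% and 2.05%. Just inside the threshold, 33 cells had 0.2% to 0.25%, and just outside it 56 cells had 0.15% to 0.2%, of which 12.5% also passed the mOSN criterion on Omp against 3.03% of those inside. At the other limit, 8 progenitors had 4% to 5% of UMIs from S100a8 and S100a9 and 7 excluded cells had 5% to 6%, with a median secondary granule share (14 genes, among them Ltf, Camp and Ngp) of 0.876% and 1.68%. In all, 128 cells that met the first criterion were excluded by the second, and 352 progenitors (86.27%) had less than 1% of UMIs from S100a8 and S100a9. No doublet caller was run. The mOSN, erythroid and B lineage gates were also applied to the progenitors, and 13 cells passed. Of these, 10 passed the mOSN gate (3 of the 6 cells of WT replicate 3 among them) and 3, all in Upf3b-null replicate 4, the erythroid gate. This count does not cover the monocyte gate. In all, 1 cell barcode was found among the progenitors of 2 libraries, and 372 barcodes were shared by kept cells of different libraries.

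**Figure D1:**
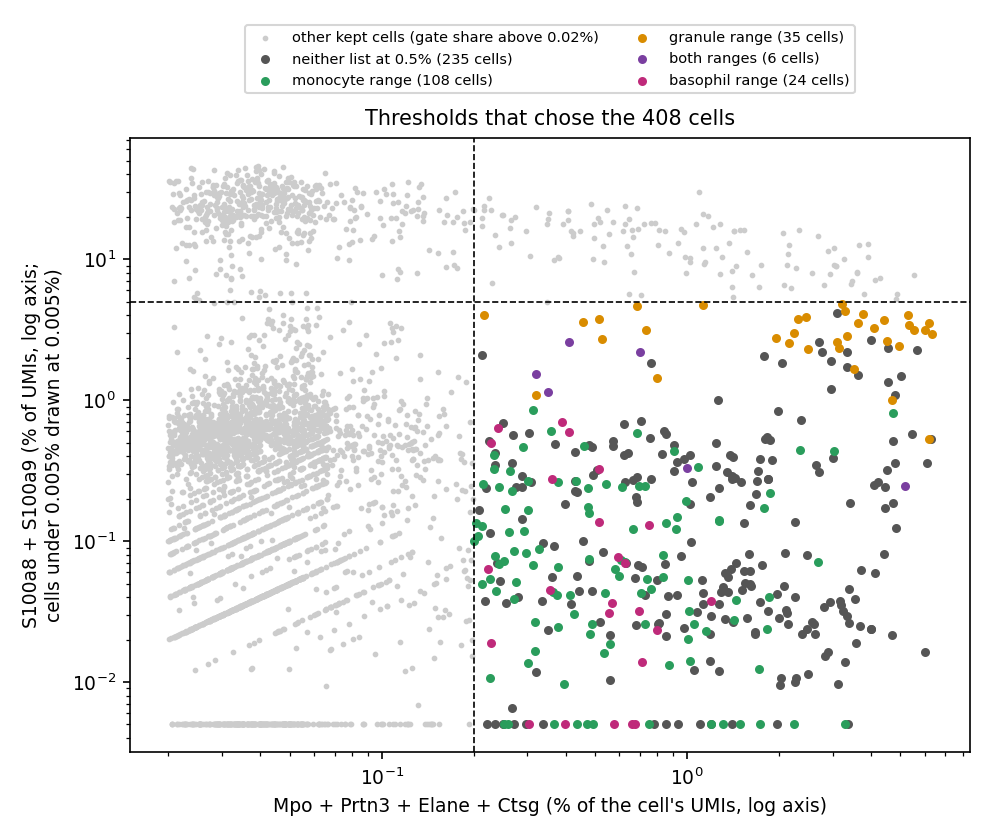
Each point is a kept cell, with the share of its UMIs from Mpo, Prtn3, Elane and Ctsg on the horizontal log axis and from S100a8 and S100a9 on the vertical log axis (percent of UMIs), and dashed lines mark the limits of 0.2% and 5%. The 408 progenitors fill the lower right field without a gap at the left line, and the 35 cells of the granule range (at least 0.5% of UMIs from secondary granule genes, below that for monocyte genes) have medians of 3.22% and 3.14%, with some cells as low as 0.216% on the horizontal axis.

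Beyond the selecting genes, the transcripts that led the progenitors over all other kept cells included further genes of the promyelocyte step, among them Ms4a3, Srgn, Prss57 and Cst7. The 30 genes with the largest ratio of mean CPM include the 4 selecting genes, which are high by choice. Of the 30, 28 were higher in the progenitors in all 8 mice, and the exceptions were Mcpt8 (7 mice) and Cpa3 (6 mice). Because the cells were picked by their transcripts, no test was made of this contrast. Ms4a3, a tetraspan protein of granulocyte-monocyte progenitors, had 704.8 ± 323.5 CPM (mean ± SD, n = 8 mice) against 17.7 in the other cells, a log2 ratio of 4.69 with 10 CPM added to both. Plac8, found in 99.26% of the cells, had 3839 ± 929 CPM against 286.5 (2528 in cells of a monocyte gate), and Srgn, which encodes the proteoglycan that packs granule proteases, 980.2 ± 226.2 against 64.8. The protease gene Prss57 (135.9 against 3.47 CPM) and Cst7, an inhibitor of cathepsins (191.7 against 4.16 CPM), followed the same pattern. Of a list of 16 azurophil-stage genes outside the selecting set, 15 had UMIs and Bpi was at 0 among 3067235 UMIs. As a sum this list did not set the progenitors apart from later myeloid cells, with 1.20% of UMIs against 1.23% in neutrophils with secondary granule RNA (at least 5% of UMIs from S100a8 and S100a9 and at least 0.5% from Ngp, Camp and Ltf) and 2.01% in the monocyte gate, and Srgn also had 734.3 CPM in neutrophils below the limit for secondary granule RNA.

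The progenitor genes Myb, Cd34 and Myc were higher than in the pool of all other cells, and the stem cell genes Hlf, Mecom and Meis1 were lower. Myb, a factor that sustains blood progenitors, had 132.9 ± 41.9 CPM (n = 8) against 14.1 in the other cells, and the surface protein gene Cd34 had 75.2 ± 34.5 against 3.14 CPM, each higher in 8 of 8 mice. In a gate for B lineage cells Myb was at 155.4 ± 110.1 CPM. Summed, the 14 genes of the progenitor and stem cell list made up 0.0752% of UMIs in the progenitors. They made up 0.0782% in the B lineage gate and 0.0558% in cells of no gate. Myc had 77.2 ± 50.8 against 6.10 CPM. The stem cell genes Hlf (6.53 CPM), Mecom (5.42 CPM) and Meis1 (10.7 CPM) were below the other cells in all 8 mice. S phase genes (20 genes) made up 0.212% of progenitor UMIs, against 0.0767% in neutrophils with secondary granule RNA, 0.114% in the monocyte gate and 0.233% in the B lineage gate. G2/M genes (23 genes) made up 0.259%, against 0.211%, 0.286% and 0.472% in the same order. The 13 genes of protein folding in the endoplasmic reticulum, among them Sec61b, Hspa5 and Calr, made up 0.627% of progenitor UMIs and 0.149%, 0.352% and 0.265% in the same order.

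Transcription factors and receptors of both later lineages were detected. Irf8, which directs monocyte fate, had 351.9 ± 167.4 CPM (n = 8) in the progenitors, close to the 320.7 of the monocyte gate and far above the 9.64 of the neutrophils with secondary granule RNA. Cebpe, needed for secondary granules, had 102.6 ± 65.0 CPM against 640.3 in those neutrophils and 10.3 in the monocyte gate. Spi1 had 276.9 ± 109.2 CPM, below both neutrophils (422.5) and monocytes (390.9). Among receptors of growth factors, the GM-CSF receptor gene Csf2ra had 107.9 CPM, the M-CSF receptor gene Csf1r 60.4 CPM and the G-CSF receptor gene Csf3r 33.2 CPM. Secondary granule genes made up 0.291% of progenitor UMIs against 11.2% in the neutrophils, and 13 monocyte genes 0.352% against 0.802% in the monocyte gate.

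**Figure D2:**
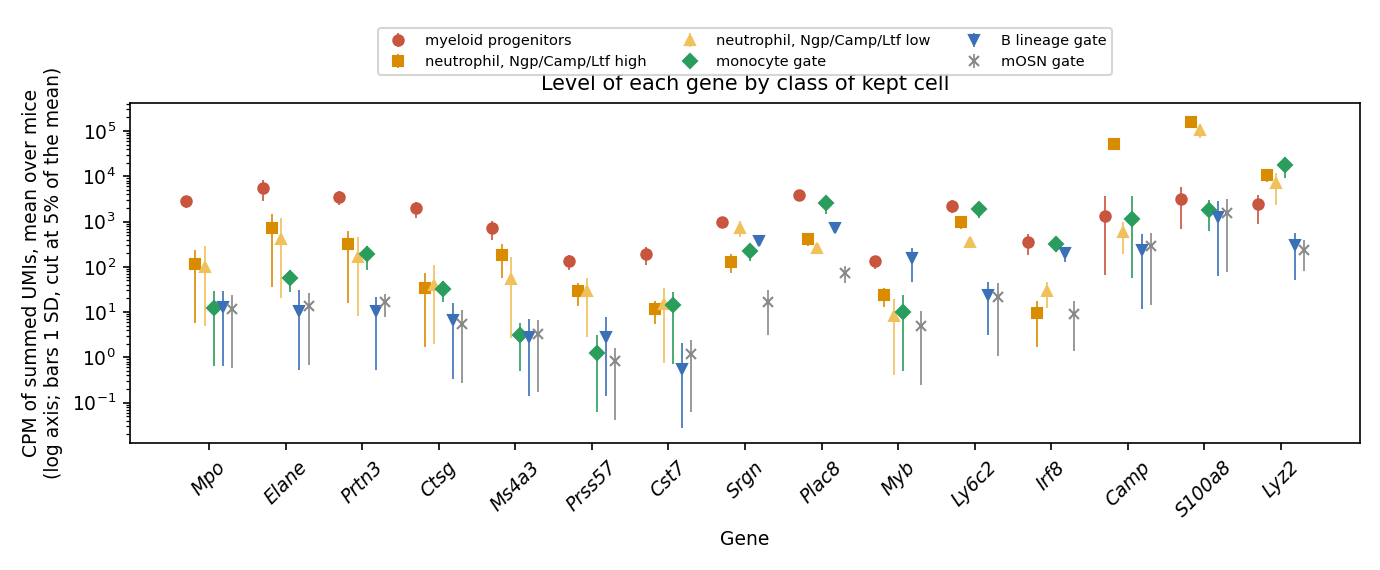
Mean level over mice (CPM of summed UMIs, log axis) of 15 genes in 6 classes of kept cells, with bars of 1 SD over mice. The first 4 genes chose the progenitors, Ms4a3, Prss57 and Cst7 lie above every other class without having been used, and Camp, S100a8 and Lyz2 are higher in the later classes.

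Markers of other cells were low but present. The 6 T and NK genes in the matrices gave UMIs for 2 genes only, with 4 at 0, and the dendritic marker Siglech was at 0. Of 8 macrophage genes the most abundant was Apoe, which is not particular to macrophages, at 0.0210% of UMIs, and 8 dendritic genes with UMIs summed to 0.0220%. The 6 megakaryocyte genes summed to 0.00228%, 7 B lineage genes to 0.0104%, 16 interferon-induced genes to 0.0900%, 14 genes of antimicrobial proteins and the phagocyte oxidase to 0.60%, and 10 late neutrophil genes to 0.130%. Erythroid genes, led by Hbb-bs, made up 0.0249%, 0.00744%, 0.271% and 0.412% of progenitor UMIs in WT replicates 1 to 4 and 0.0368%, 0.00903%, 1.40% and 0.915% in null replicates 1 to 4. The erythroid share was thus highest in replicates 3 and 4 of both genotypes. The libraries of these replicates also stood apart in their files, where entries run in ascending gene order while those of replicates 1 and 2 run in descending order, a split that is balanced over genotype and that the labels do not explain. Genes of mOSNs, led by S100a5, followed the same split (0.0671%, 0.0149%, 0.371% and 0.226% in WT, 0.0904%, 0.0141%, 0.201% and 0.146% in null mice), as did sustentacular and gland genes, led by Scgb1c1, except for null replicate 1 (0.191%). Basal cell genes summed to 0.00114%, immature OSN genes were led by Ncam1 at 0.00496%, and stromal and endothelial genes by Pecam1 at 0.00205% of UMIs.

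The progenitors were not uniform. They were divided at 0.5% of UMIs from monocyte genes and at 0.5% from secondary granule genes, and a further range, at least 0.5% of UMIs from 7 basophil and mast cell genes, was added after the leading genes had been seen. In that order of ranges, 235 cells reached none of the limits, 108 were in the monocyte range only, 35 in the granule range only, 6 in both and 24 in the basophil range, whatever their other scores. These are cuts on continuous scores, with 86 cells between 0.4% and 0.6% for the monocyte list, 18 for the granule list and only 2 for the basophil list. To compare cells of unequal depth, each cell was thinned to 1500 UMIs, and the share of cells with a UMI was taken. The genes that define a range are described and not tested.

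Summed over the 4 selecting genes, the granule range had more RNA than cells of no range in each of the 6 mice with such cells. Ctsg alone was higher in 4 of these 6 mice. In null replicate 3 the monocyte range, with 1 cell there, had 47200 CPM of the 4 genes against 31730 in the granule range. The median gate share of the granule range was 3.22%, against 1.33% in cells of no range and 0.483% in the monocyte range. Elane was found in 97.1% of its thinned cells against 81.3% and 79.6%. Shares of thinned cells are pooled over mice. Null replicate 1 supplied 19 of 35 granule range cells, 137 of 235 of no range and 60 of 108 of the monocyte range. Of factors outside the lists that set the ranges, Cebpe was found in 45.7% of granule range cells, 9.36% of cells of no range and 2.78% of the monocyte range. Ms4a3 followed the same order with 85.7%, 55.7% and 29.6%, and so did Srgn with 88.6%, 68.5% and 28.7%. Myb was instead most frequent in cells of no range (28.5% against 8.57% in the granule range and 3.70% in the monocyte range), and Sox4 was found in 13.6% of them and in 0 cells of both other ranges after thinning.

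Summed over cells, the monocyte range had lower levels of all 4 selecting genes than cells of no range. Over summed UMIs, Mpo had 1439 CPM in the monocyte range against 4262 in cells of no range, Elane 2951 against 6966, Ctsg 1128 against 2373 and Prtn3 2961 against 4300 CPM. Null replicate 1 supplied 60 of the 108 and 137 of the 235 cells, and without it the values were 1810 against 3329 CPM for Mpo, 3321 against 5184 for Elane, 1424 against 2040 for Ctsg and 2941 against 3175 for Prtn3. Mouse by mouse the monocyte range was lower in 5 of 8 mice for Mpo, 6 for Elane and Prtn3 and 7 for Ctsg, with 1 to 60 cells of that range in a mouse. The shares of thinned cells that follow are pooled over mice in the same way. Prtn3 was still found in 91.7% of its thinned cells against 95.3%, whereas Mpo was found in 58.3% against 89.4% and Ctsg in 58.3% against 82.1%. Irf8 was found in 39.8% of its cells against 21.3% in cells of no range and 5.71% in the granule range, and the lysozyme gene Lyz2 in 92.6% against 41.3% and 54.3%. Spi1 had 430.2 CPM over summed UMIs in the monocyte range, 241.8 in cells of no range and 327.7 in the granule range. The S100a8 and S100a9 share had a median of 0.0681% in this range and of 3.14% in the granule range. G2/M genes made up 0.340% of UMIs in the monocyte range, 0.222% in cells of no range and 0.237% in the granule range, and S phase genes 0.246%, 0.199% and 0.221%.

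The 24 cells of the basophil range carried Mpo and Ctsg with little Prtn3 or Elane. After thinning, Mpo and Ctsg were each found in 91.7% of them, Prtn3 in 16.7% and Elane in 8.33%. Of the genes of the list that set the range, the basophil proteases Prss34 (52740 CPM over their summed UMIs) and Mcpt8 (33310 CPM) were the most abundant, and the IgE receptor gene Fcer1a had 118 UMIs in these cells and 0 in the 235, 108, 35 and 6 cells of the other ranges. Among genes outside the list, Egr1 was found in 33.3% of thinned cells against 2.55% of cells of no range, Runx1 in 41.7% against 8.09%, Cd63 in 83.3% against 33.6% and Ly6c2 in 12.5% against 64.3%, and Irf8, Cebpe and Prss57 were found in 0 thinned cells. Their median depth was 3749.5 UMIs and 1396.5 genes. They came from 6 of 8 mice, 4 cells from WT and 20 from null mice, and a name for them is not given because the list was applied after the values had been seen.

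**Figure D3:**
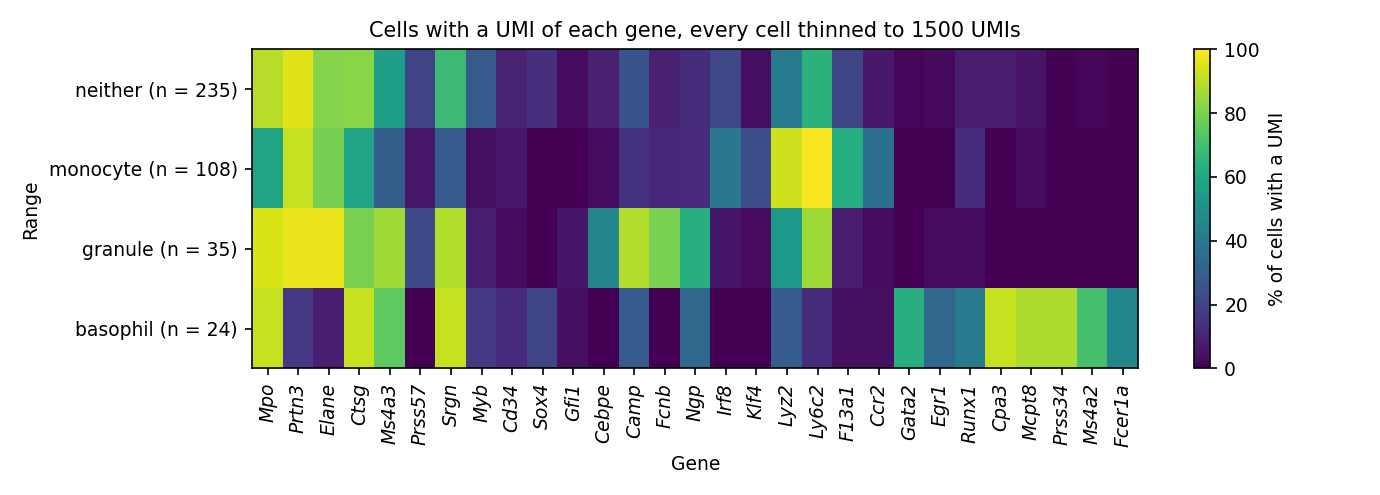
Share of cells (percent, color) with a UMI of each gene (columns) after thinning every cell to 1500 UMIs, in the 4 ranges with more than 6 cells (rows). Elane and Prtn3 are dark in the basophil row, where Mpo and Ctsg remain bright, and Cebpe and Camp are brightest in the granule row and Irf8 and Lyz2 in the monocyte row.

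The number of progenitors varied widely between mice of the same genotype. They were 29, 23, 6 and 12 cells in WT replicates 1 to 4, or 1.58%, 1.59%, 0.215% and 0.390% of kept cells, and 229, 10, 14 and 85 cells in null replicates 1 to 4, or 3.20%, 0.750%, 0.819% and 1.46%. Exact (Clopper-Pearson) 95% intervals, which cover counting error only, ran from 0.0789% to 0.467% in WT replicate 3 and from 2.80% to 3.63% in null replicate 1. Null replicate 1 was the highest mouse and WT replicates 3 and 4 the lowest, with the groups overlapping between them. The mean was 0.945% ± 0.746 (SD, n = 4) in WT and 1.56% ± 1.14 (n = 4) in null mice, and the difference of 0.611 percentage points did not exceed the spread between mice (exact two-sided permutation test over 70 allocations, p = 0.457, smallest possible p = 0.0286). Without null replicate 1 the difference was 0.0631 points (exact permutation p = 1.0), and without WT replicate 3 it was 0.368 points (exact permutation p = 0.714).

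Haematopoietic cells took unequal parts of the libraries. Progenitors, neutrophils, monocytes, B lineage and erythroid cells by the gates made up 14.1%, 20.8%, 10.3% and 19.8% of kept cells in WT and 19.7%, 17.7%, 38.3% and 42.2% in null replicates 1 to 4, 6218 cells in all. Of these haematopoietic cells, progenitors were 11.2%, 7.64%, 2.1% and 1.97% in WT and 16.2%, 4.24%, 2.14% and 3.45% in null mice. On this denominator the difference was 0.788 points (exact permutation p = 0.771). Within genotypes, replicates 1 and 2 lay above replicates 3 and 4, and with genotypes permuted only within these sets the p-value was 0.722 (exact permutation, smallest possible 0.0556). For the share of kept cells it was 0.389.

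**Figure D4:**
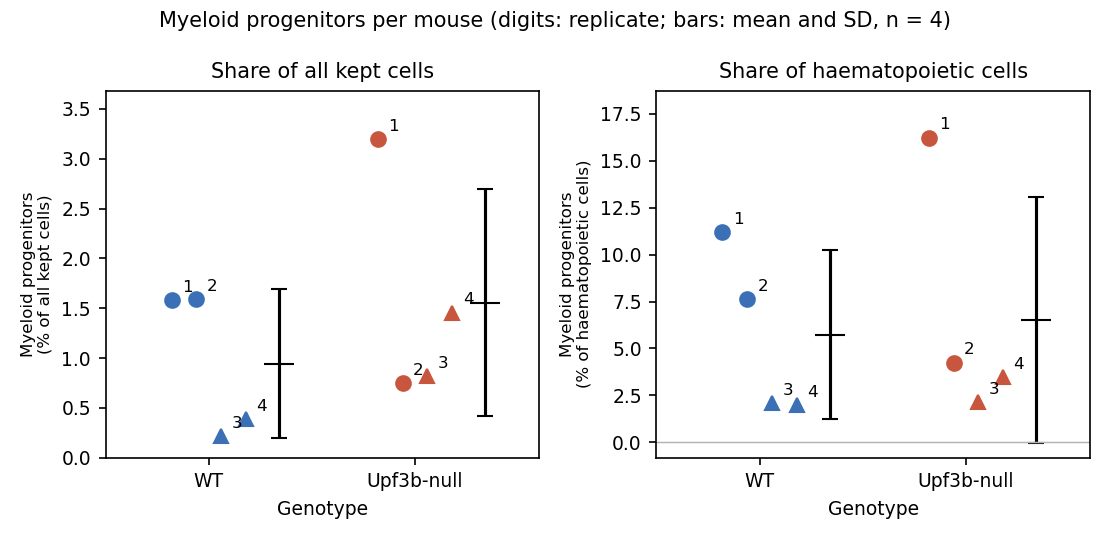
Progenitors as percent of all kept cells (left) and of haematopoietic cells (right) in each mouse, with replicate numbers beside the points, circles for replicates 1 and 2, triangles for replicates 3 and 4, and the mean and SD of 4 mice per genotype. Null replicate 1 is highest in both panels and the genotypes overlap.

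The division into ranges also overlapped between genotypes. By the monocyte and granule limits alone, the monocyte range held 51.7%, 39.1%, 16.7% and 16.7% of the progenitors in WT and 26.6%, 50.0%, 7.14% and 17.6% in null replicates 1 to 4. The granule range held 3.45%, 8.70%, 0% and 33.3% in WT and 8.30%, 0%, 14.3% and 8.24% in null mice, and the basophil range 3.45%, 13%, 0% and 0% against 5.24%, 20%, 7.14% and 5.88%. With 6 to 29 progenitors in a WT mouse, a single cell moved these shares by several points. Secondary granule genes made up 0.236% ± 0.192 of UMIs in WT and 0.441% ± 0.528 in null mice (n = 4 each). This difference became -0.0567 points without null replicate 3, and 0.0614 and 0.0199 points at gates of 0.1% and 0.5%. Monocyte genes made up 0.434% ± 0.104 and 0.372% ± 0.133, S phase genes 0.205% ± 0.0591 and 0.207% ± 0.00935, and G2/M genes 0.293% ± 0.0419 and 0.251% ± 0.0318, all with overlapping groups.

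Upf3b RNA followed the labels. In the progenitors it had 8, 7, 3 and 0 UMIs in WT replicates 1 to 4 and 0, 0, 0 and 1 UMI in null replicates 1 to 4. WT replicate 4 had 57988 progenitor UMIs in all, and a count of 0 there allows up to 3 UMIs. In all kept cells Upf3b had 58.3, 63.1, 76.7 and 88.5 CPM in WT and 0.479, 0.211, 1.24 and 0.990 CPM in null mice, without overlap. Its paralog Upf3a had 38.0 ± 12.6 CPM in WT and 29.5 ± 2.77 CPM in null progenitors (n = 4 each), with overlapping groups.

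Gene by gene, no change in the progenitors passed the test between genotypes. UMIs were summed per mouse and compared by edgeR's quasi-likelihood test in the mice with at least 10 progenitors, 3 WT (without replicate 3) and 4 null, with between 57988 and 1657219 UMIs per mouse. Of 2836 genes tested, 0 (0%) passed a Benjamini-Hochberg adjusted p of 0.05, 56 (1.97%) had an unadjusted p under 0.05, and 134 (4.72%) had groups of mice that did not overlap. DESeq2 called 0 genes as well, with 33 at an unadjusted p under 0.05. Deviations of WT and null mice with the same replicate number were correlated, and with that number as a block edgeR called 10 of 2836 genes (0.353%), 7 higher and 3 lower in null mice. In that fit 3 pairs of mice carry the comparison, since null replicate 3 has no WT mate. Without the filter on low counts edgeR called 5 of 14944 genes (0.0335%), 1 of which was Upf3b (log2 fold change -5.45 ± 1.1 SE, edgeR adjusted p = 0.00243, 16 UMIs in all). With a block for the sets of replicates 1 and 2 and replicates 3 and 4, an alternative added after the data had been seen, 0 of 2836 genes passed, and 1 of 2294 (0.0436%) passed with all 8 mice.

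Snhg6, a small nucleolar RNA host gene whose spliced transcript is known as a substrate of NMD, had the second smallest p-value of the genes named by genotype. It had 67.1, 40.6, 63.6 and 103.5 CPM in the progenitors of WT replicates 1 to 4 and 174.4, 180.6, 190.0 and 199.0 CPM in those of null replicates 1 to 4. All 4 null mice lay above all 4 WT mice, including the mouse left out of the fit. The log2 fold change was 1.63 ± 0.38 SE (unadjusted p = 9.17e-04, edgeR adjusted p = 1.0), and it passed with the replicate block at 1.52 (edgeR adjusted p = 0.0163). In all other kept cells of the same libraries Snhg6 had 49.7, 59.4, 45.6 and 50.7 CPM in WT and 121.6, 155.7, 68.9 and 102.7 CPM in null mice, again without overlap, and in the mOSN gate 40.6, 54.7, 46.3 and 43.8 against 125.9, 155.0, 102.0 and 104.5 CPM. Over all other kept cells the exact permutation p was 0.0286, the smallest 4 against 4 mice can give, and 0.457 when adjusted over the 16 named genes. These genes were chosen by p-value in progenitors of the same libraries, so the other cells are not an independent check. In the haematopoietic cells that were not progenitors the groups overlapped, with 32.7, 30.4, 29.96 and 30.7 CPM in WT and 73.2, 99.4, 29.6 and 70.2 CPM in null mice. Null replicate 3 lay below every WT mouse there, and the other null mice above. Snhg6 (ENSMUSG00000098234) lies at chr1:9941959-9944118 on the minus strand of GRCm38.

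The other listed substrates of NMD in the matrices, summed, gave overlapping groups. Of 17 listed (snoRNA hosts and stress genes such as Atf4 and Ddit3), 10 were in the matrices, and the host Gas5 was not among them. Beside Snhg6 the hosts measured were Snhg12 (108 progenitor UMIs) and Epb41l4aos (93). Atf4 gave 409 of the 843 progenitor UMIs outside Snhg6. Expressed enough to be tested were 2, Snhg6 and Atf4 (log2 fold change 0.51). Their median log2 fold change was 1.07 against 0.01 over all 2836 genes. The 10 genes together made up 0.0278%, 0.0244%, 0.0318% and 0.0414% of progenitor UMIs in WT and 0.0463%, 0.0532%, 0.0434% and 0.0473% in null mice. Without Snhg6 the remaining 9 had 0.0245% ± 0.00494 in WT and 0.0289% ± 0.00453 in null mice (n = 4 each), and the groups overlapped. Of 14 NMD factors 4 were tested, 2 higher and 2 lower, and 0 passed.

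The other genes with the smallest p-values are given as values, since none passed. Ccl3 and Ccl4, chemokine genes 13228 bases apart on chromosome 11, had log2 fold changes of -2.29 ± 0.68 and -2.42 ± 0.79. These were -0.93 and -0.77 at a gate of 0.1%, in a fit that also takes in WT replicate 3. Ccl3 had 407.1, 223.2, 0 and 17.2 CPM in WT and 70, 10.0, 73.1 and 15.5 CPM in null replicates 1 to 4, so the height in WT rested on replicates 1 and 2 and the groups overlapped. Both passed with the replicate block (-2.47 and -1.98, edgeR adjusted p = 3.57e-04 and 4.49e-04), and Ccl3 also without the filter on low counts (-2.21, edgeR adjusted p = 0.00213). The phosphatidylinositol transfer protein gene Pitpna had 158.0, 175.8, 127.2 and 155.2 CPM in WT and 73.0, 90.3, 63.4 and 85.5 CPM in null mice (log2 fold change -0.98 ± 0.31), with every null mouse below every WT mouse. The glycolytic gene Pgk1 had 138.9, 196.1, 127.2 and 120.7 CPM in WT and 29.6, 100.3, 87.7 and 54.4 CPM in null mice (-1.27 ± 0.45), also without overlap, and it passed with the block (-1.55, edgeR adjusted p = 0.0275).

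Of the 8 genes named as higher, Rps27rt had the smallest p-value (log2 fold change 1.47 ± 0.33, unadjusted p = 7.53e-04) and passed with the block (1.62, edgeR adjusted p = 0.00407). It and Rpl23a-ps3 (1.08 ± 0.33) are retrocopies of ribosomal protein genes, whose reads can be assigned to the copy or to the parent gene, so their values are uncertain. The mitochondrial protein genes Usmg5 (0.92 ± 0.24) and Romo1 (0.77 ± 0.26), and Myeov2 (0.77 ± 0.28), Luc7l (1.90 ± 0.55) and Dync1i2 (1.63 ± 0.54) completed the set with Snhg6. The fold changes of Luc7l and Dync1i2 rest on the mice of the fit, since WT replicate 3 had 106.0 and 148.4 CPM of them, above every null mouse. At a gate of 0.1%, in a fit that also includes this mouse, the fold changes were 0.17 and 0.54. Of the 8 named as lower, Ube2c, an enzyme of mitotic exit, had -0.84 ± 0.27, the kinase gene Lyn -1.02 ± 0.38, Fundc1 -1.02 ± 0.40 and Trappc3 -1.0 ± 0.40. At a gate of 0.1%, again with WT replicate 3 in the fit, Usmg5 was at 0.50, Romo1 at 0.32, Ube2c at -0.43, Lyn at -0.47 and Trappc3 at -0.54. In the 7 mice of the fit, 14 of these 16 genes had groups that did not overlap (4.72% of all genes tested), which follows from their choice by p-value in the same mice. With all 8 mice 6 of the 16 did not overlap (Rps27rt, Snhg6, Myeov2, Pitpna, Pgk1 and Trappc3) and 1.34% of all genes tested, a count that the same choice also favours, since 7 of the 8 mice made it. The count over 8 mice used CPM of all progenitor UMIs, and that over 7 mice the normalized CPM of the fit. Scaling and mice thus changed together.

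**Figure D5:**
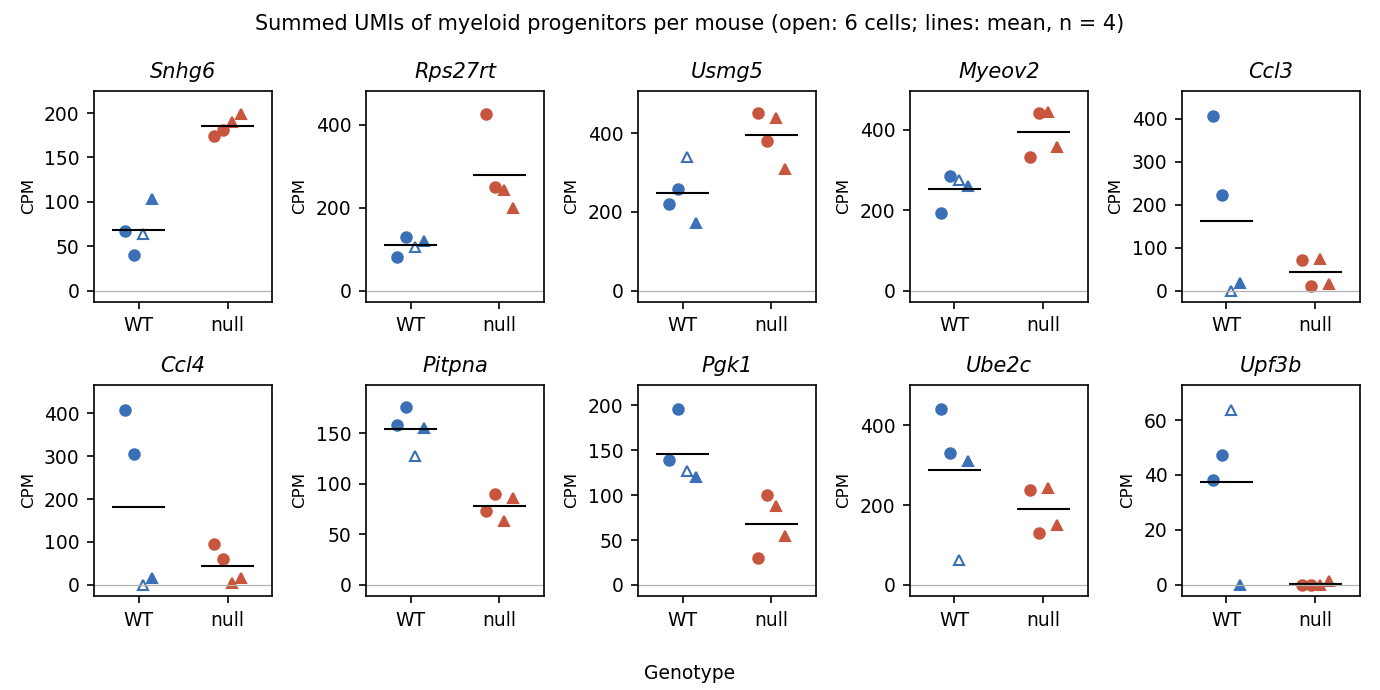
Level of 10 genes (CPM of summed progenitor UMIs) in each mouse by genotype, with circles for replicates 1 and 2, triangles for replicates 3 and 4, an open triangle for WT replicate 3 (6 cells) and lines for the mean of 4 mice. Snhg6, Rps27rt, Myeov2, Pitpna and Pgk1 separate the genotypes without overlap in all 8 mice, and Ccl3 and Ccl4 do not.

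Of the 10 genes called with the replicate block, the remaining ones were higher in null mice: the hemoglobin genes Hbb-bt (2.44) and Hba-a1 (1.28), Retnlg (2.65), Rnaset2b (2.66) and Wdr89 (1.25). Hbb-bt had 14.4, 0, 169.6 and 172.4 CPM in WT and 35.0, 10.0, 1033 and 1063 CPM in null progenitors, and in cells of the mOSN gate of the same libraries it had 30.2, 4.42, 648.4 and 584.0 against 59.8, 8.81, 1230 and 1391 CPM. Retnlg, a gene of mature neutrophils, had 14.4, 6.76, 42.4 and 69.0 against 119.5, 0, 263.1 and 401.1 CPM in progenitors, and 16.7, 20.5, 205.6 and 130.5 against 150.6, 10.0, 311.2 and 450.6 CPM in the mOSN gate. In both cell classes and for both genes, null replicates 3 and 4 were the highest mice. The part of free RNA in these calls was not tested. Hba-a1 and Rnaset2b have near-identical copies (Hba-a2 and Rnaset2a) and are uncertain for that reason as well.

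With the filter on low counts and without a block, 0 genes of any list were called. Without the filter the calls included Upf3b of the NMD factors, Fcer1a of the basophil list (log2 fold change -2.5, edgeR adjusted p = 0.00213) and Cyp2a5 of the sustentacular and gland list (2.81, edgeR adjusted p = 0.0483). Fcer1a had 143.7, 189.4, 0 and 0 CPM in WT and 27.2, 20.1, 0 and 20.2 CPM in null mice, so the groups overlapped, and all its 118 UMIs lay in the 24 cells of the basophil range. Cyp2a5 had 19.2, 0, 360.4 and 34.5 CPM in WT and 65.2, 0, 229.0 and 66.8 CPM in null mice, and with WT replicate 3, which the fit leaves out, its mean was higher in WT (103.5 against 90.3 CPM). In the filtered fit, of 15 azurophil-stage genes tested 5 were higher and 10 lower in null mice (median log2 fold change -0.07, against 0.01 over all 2836 genes, of which 1452 were higher and 1383 lower), and all 7 growth factor and surface receptors tested were lower with a median of -0.18. Of 6 progenitor genes 5 were higher (median 0.56), and of 8 transcription factors 4 were (-0.16). S phase genes were higher in 13 of 16 (median 0.28, Mcm7 with an unadjusted p under 0.05), whereas G2/M genes were lower in 15 of 21 (-0.20, Ube2c and Ccnb1 under 0.05). The summed S phase genes were at 0.205% of UMIs in WT and 0.207% in null mice over all 8 mice, with overlapping groups. In the other lists Snhg6, Lcn2, Retnlg and Cyp2a5 were under 0.05 unadjusted, as were 1.97% of all genes tested. Mpo was under 0.05 too, but the selection used it, so its p-value is not read as a result. Genes of folding in the endoplasmic reticulum were higher in 11 of 13 (0.16), secondary granule genes in 5 of 9 (0.17), late neutrophil genes in 2 of 5 (-0.31) and monocyte genes in 3 of 11 (-0.30). All 4 basophil genes tested were lower (-0.46). The summed basophil list was at 0.4665%, 1.05%, 0% and 0.019% of UMIs in WT and 0.2802%, 0.4866%, 0.5292% and 0.1334% in null replicates 1 to 4. Null mice were thus lower in replicates 1 and 2 and higher in replicates 3 and 4. All 4 erythroid genes were higher (2.36), and the erythroid share also differed between replicates 1 and 2 and replicates 3 and 4. The tested mOSN genes (4 of 4, median 0.61) and sustentacular and gland genes (5 of 5, median 1.21) were higher too in this fit, which leaves out WT replicate 3, the mouse with the highest share of both lists. Over all 8 mice the summed mOSN genes were at 0.170% of UMIs in WT and 0.113% in null mice, the sustentacular and gland genes at 0.123% and 0.133% and the late neutrophil genes at 0.118% and 0.129%, with overlapping groups, so that the mOSN and late neutrophil lists turned direction. The part of free RNA in these medians was not tested.

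The selecting genes were also looked up in sorted mOSNs. The study reports low expression of antimicrobial genes in olfactory sensory neurons, and higher levels in Upf3b-null mice. RNA-seq had been made of YFP-positive cells of Omp-Cre, R26-eYFP males (4 WT and 4 null samples, each a pool of mice), and in bulk RNA fewer cells of a type and less RNA per cell cannot be told apart. Read counts of Elane were 12, 19, 0 and 1 for WT samples 1 to 4, against 10, 31, 326 and 13 for null samples, Ctsg had 9, 7, 4 and 3 against 0, 10, 141 and 3, and Prtn3 had 4, 10, 5 and 0 against 4, 9, 72 and 5. Null sample 3 was the highest sample for all 3 genes. In that sample the granule genes Camp (719 counts), Ngp (1672 counts) and Ltf (2487 counts) were also higher than in any other. Null sample 2 came next for these genes, with 333, 857 and 1155 counts, above all remaining samples. Whether the counts of the selecting and granule genes came from mOSNs or from other cells in the sort was not tested. Transcripts of Mpo and Ms4a3 were not analysed in these tables. Counts per sample summed to between 1216784 and 3264827. RiboTag RNA of mOSNs had instead been precipitated with tagged ribosomes from lysates of whole OE, without a sort. Each sample was a pool of adult males of Omp-Cre, RiboTag genotype, WT or Upf3b-null, with 2691023 to 7542665 counts. There Elane had 4.98, 4.65 and 1.46 CPM for WT, against 1.85, 3.02 and 2.60 CPM for null samples. Prtn3 had 1.37, 3.27 and 2.39 CPM against 4.57, 3.48 and 0.743 CPM, and Ctsg 1.72, 0.861 and 0.928 CPM against 0.428, 1.36 and 0 CPM (a count of 0 allows up to 3 counts). The groups overlapped for all 3 genes.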

How the data were processed

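For the 8 scRNA-seq libraries the authors deposited UMI counts, by gene and by barcode, without normalization, made with Cell Ranger on mm10 (v2.0 in the methods, a later release in the list of resources), and for the bulk libraries unscaled counts of each transcript (STAR 2.5.2b, featureCounts, GRCm38). The cell filters are those of the study, with its mitochondrial limit read as 20%. The members, gene lists and ranges were chosen with earlier results of these data known. Reference classes were gates on marker genes, applied in the order neutrophil, monocyte, B lineage, erythroid and mOSN. No clustering and no doublet caller was used, and the study's own removal of multiplets is not in these files.

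UMIs were summed per mouse. Genotypes were compared with edgeR 4.0.16 (TMM, filterByExpr, robust quasi-likelihood test, Benjamini-Hochberg over all genes tested, limit 0.05) in R 4.3.3 with limma 3.58.1, and with DESeq2 1.42.0 as an alternative. Shares were compared by exact permutation over mice (scipy 1.17.1, Python 3.11.15, numpy 2.4.6, pandas 2.3.3), and figures were drawn with matplotlib 3.10.9. Kept UMIs per library ran from 4357078 to 27140982 and progenitor UMIs from 47169 to 1657219. On simulated counts for the 2836 genes, 42% of 200 genes changed by a log2 fold of 1.5 were found, with 1 false call. The genes named by genotype were all called genes or, failing that, the 8 higher and 8 lower with the smallest p, and the genes named against other cells the 30 with the largest ratio at 100 CPM or more and in 10% or more of the cells. Predicted, mitochondrial and Olfr genes were counted and not named. Deviations of WT and null mice with the same number correlated at 0.35, 0.338 and 0.541 (replicates 1, 2 and 4). Those with different numbers correlated between -0.463 and 0.183. Numbers were therefore taken to pair mice, from the data and not from the labels. Mice of the same number also share the set of replicates 1 and 2 or of replicates 3 and 4. Within a set, mice of different numbers correlated at 0.183, 0.124 and 0.045, against -0.463 to 0.017 across sets. Whether number or set carries the correlation was not tested. The mice are separate animals, 1 library each.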

Additional observations from a re-analysis of the deposited data

Results flagged for a closer look

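In 60 groups of 4 samples, 7 had a sample set apart from the others by a gap above Dixon's 95% limit. Chance gives about 1 in 20 such groups only if values are normally distributed and groups independent. The groups were not independent, since the same mice recur in them. They also included levels of the selecting genes and of S100a8 and S100a9, which the selection used. The count of 7 is thus a description and not an excess over chance. Upf3b-null replicate 1 had 16.2% progenitors among haematopoietic cells, with 2.14% to 4.24% in the other null mice. WT replicate 4 had 4587 CPM of S100a9 in its progenitors, with 233.2 to 730.4 CPM in the other WT mice. Upf3b-null replicate 3 had 1.23% of progenitor UMIs from secondary granule genes, with 0.0803% to 0.241% in the other null mice, and 14 progenitors in all. Upf3b-null replicate 2 had 0.714% of UMIs from eosinophil genes, with at most 0.00482% in the others. In sorted mOSN RNA-seq, null sample 3 had 22.1 CPM of Prtn3, 99.8 CPM of Elane and 43.2 CPM of Ctsg, with at most 3.52, 12.1 and 3.91 CPM in the other null samples.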

How the results depend on the processing

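The difference in the share of progenitors kept its direction and stayed short of the threshold under all 18 alternatives (p from 0.286 to 1.0). Leaving out 1 mouse at a time gave 0.0631 to 0.880 percentage points, and the other alternatives 0.484 to 0.844 points. Among the latter were gates of 0.1% and 0.5%, S100a8 and S100a9 limits of 2% and 10% and relaxed cell filters. Another left out the cells that also passed the mOSN, erythroid or B lineage gate. With mice paired by number (replicate block) the share gave an exact sign-flip p of 0.375, where the smallest possible is 0.125. The count of called genes was 0 under every gate, with RLE size factors, with DESeq2 and with 1 mouse left out (0 to 0). Some of these fits held fewer mice and so had less power. A gate of 0.5% left 2 WT and 3 null mice, and an S100a8 and S100a9 limit of 2% left 2 WT and 4 null mice. The count was 10 with the replicate block and 5 without the filter on low counts. Chosen after seeing the data, a block for the 2 sets of libraries gave 0 calls, and 1 call with all 8 mice (Hbb-bt, higher). Replicates 1 and 2 alone gave 2 calls (Fcer1a and Ccl4, lower), and replicates 3 and 4 alone gave 2 (Hbb-bt and Mcpt8, higher, the latter against 0 and 17.2 CPM in WT mice without cells of the basophil range). Among the 16 named genes, 256 of 262 alternative values kept direction and side, 6 became calls and 0 reversed. Their size moved more. The fit at a gate of 0.1% also took in WT replicate 3 (4 WT mice instead of 3), so gate and mice changed together. In it the log2 fold changes moved by over 1.5 times for Luc7l (0.17), Dync1i2 (0.54), Usmg5 (0.50), Romo1 (0.32), Ccl3 (-0.93), Ccl4 (-0.77), Lyn (-0.47), Trappc3 (-0.54) and Ube2c (-0.43). That of Dync1i2 also did with the replicate block (1.05). The difference in S and G2/M genes moved to 0.0107 points at a gate of 0.1%. With 1 mouse left out it ran from -0.0530 to -0.0266, that of secondary granule genes from -0.0567 to 0.325 and that of monocyte genes from -0.128 to -0.0261 points. The secondary granule difference was 0.0614 points at a gate of 0.1% and 0.0199 at 0.5%. It was 0.366 points at an S100a8 and S100a9 limit of 10%. The comparison limited to mice with at least 30 progenitors could not be fitted, since no WT mouse has that many, and leaving out WT replicate 3 is the fit as reported. Causes of these movements were not tested. Cells were few in WT replicates 3 and 4 (6 and 12) and in null replicates 2 and 3 (10 and 14).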

Other observations

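The eosinophil genes of Upf3b-null replicate 2 came from 1 cell. That cell held 635 UMIs of Prg2, the gene of eosinophil major basic protein, which were 6.03% of its 10539 UMIs, along with 49 UMIs of Prg3 and 28 of the eosinophil peroxidase gene Epx. Prg2 was found in 12 progenitors, and the next highest cell had 17 UMIs.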
